A study of Mus musculus with 21 samples.

Results

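Among 14 rhabdomyosarcomas (RMS) of NPE mice, 5 stood above the other 9 in Actn3, a gene of adult fast muscle fibres, and these 2 sets of tumors were compared across all genes. The tumors were chosen by this 1 measured value, the log2 signal of Actn3, which codes for the fast-fibre Z-disc protein alpha-actinin-3. A tumor was called fibre-rich where Actn3 was at least 9.4 and fibre-poor where it was below. The 5 fibre-rich tumors were NPE 1, 2, 4, 6 and 10 and the 9 fibre-poor tumors were NPE 3, 5, 7, 8, 9, 11, 12, 13 and 14, out of 21 tumors in the series. All 14 tumors came from mice that were heterozygous for Neu1 and for Ptch1 and carried the ETV7 transgene (Neu1+/-/Ptch1+/-/ETV7 TG+/-). The other 7 tumors of the series came from PE mice (Ptch1+/-/ETV7 TG+/-), which share the Ptch1 allele and the transgene but not the Neu1 allele. Neu1 codes for the lysosomal sialidase, Ptch1 for the receptor that holds hedgehog signaling in check. The animals came from a cross of Neu1+/- FVB/NJ mice with a 129sv/C57BL/6 line, so the genetic background was mixed, and sex, age and limb or trunk site were not given for single tumors. Each tumor was measured on 1 Clariom S array, and the deposited values were log2 signals, so a difference of 1 is a 2-fold difference.

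Skeletal muscle is built in steps that leave distinct transcripts. Myogenic regulators commit a cell, embryonic and perinatal myosins mark newly fused fibres, and adult fast fibres replace these with fast myosins, parvalbumin and enzymes that supply and buffer ATP in contraction. RMS cells resemble muscle precursors that enter this program and fail to complete it. Dividing and hypoxic cells rely on other isoenzymes of the same pathways, many of them induced by the hypoxia-inducible factor HIF-1. 

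Actn3 stood at 11.42, 10.37, 9.53, 9.97 and 9.95 in fibre-rich NPE tumors 1, 2, 4, 6 and 10, against 7.64 to 8.87 (median 8.20) in the fibre-poor tumors. The member just inside the threshold was NPE 4 at 9.53, and the one just outside was NPE 5 at 8.87. The 7 PE tumors had 7.46 to 8.26, all below the threshold. These values made the groups and were not tested. In RNA of a whole tumor, fewer cells of a type and less RNA per cell cannot be told apart. In the tumor labels, the last number of the title ran from 1 to 10 for 3 fibre-rich and 5 fibre-poor tumors, and higher for 2 and 4 (Fisher's exact test, 2-sided, p = 1). What that number stands for is not stated. By the mean of the other adult fast fibre genes, fibre-poor NPE 9 (9.55) and NPE 11 (9.28) stood above fibre-rich NPE 4 (9.17), so Actn3 separated the 5 tumors from the 9 and the mean of its class did not. The 5 highest by that mean were NPE 1, 2, 6, 9 and 10.

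**Figure D1:**
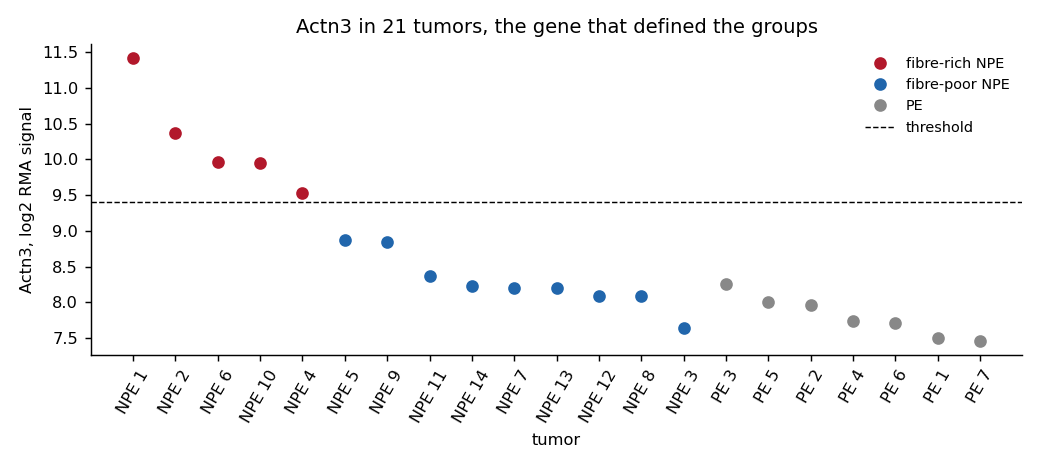
Log2 signal of Actn3 (y axis) in each of the 21 tumors (x axis), in the order fibre-rich NPE, fibre-poor NPE and PE. The dashed line is the threshold of 9.4. The lowest fibre-rich tumor stands at 9.53 and the highest fibre-poor tumor at 8.87, and no PE tumor exceeds 8.26.

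Of 22205 probe sets tested with limma, 98 were higher in fibre-rich tumors, 0.441% of all tested, and 74 were lower, 0.333% of all tested, at an adjusted p under 0.05. The p-values measure association with a split made on 1 gene of the same arrays. The median difference over all probe sets was -0.0044, close to 0. The split rested most on NPE 1 and NPE 2. Without NPE 1 the counts were 26 higher and 23 lower, without NPE 2 they were 5 and 10, and without both 7 and 5. Without NPE 10 they were 394 and 234. Without NPE 3 they were 120 and 93. Without NPE 9, 122 were higher and 147 lower. Leaving out 1 of NPE 4 to 8 or 11 to 14 gave 39 (NPE 7) to 78 (NPE 6) higher and 35 (NPE 8) to 51 (NPE 5) lower. The deviations of NPE 7 and 8 from the mean of the 14 NPE tumors correlated at 0.511 across probe sets. Those of NPE 11 and 12 correlated at 0.744 and those of NPE 1 and 2 at 0.413. Tumors of 1 fibre group can correlate here through the split itself. The labels do not say whether such pairs share an animal. With NPE 7 and 8 averaged into 1 sample, and NPE 11 and 12 into another, 12 were higher and 18 lower. In each of these fits, all 172 called probe sets kept their direction. They were chosen for their differences in these same tumors, so a kept direction is no separate support.

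Adipocyte genes moved with the split. All 17 measured adipocyte markers had positive differences (median 1.67), and 1 of them, the lipid-droplet gene Plin4, was called (0.441% of all probe sets were called higher). The mean of this list was 9.32, 9.20, 7.46, 6.88 and 6.30 in fibre-rich NPE tumors 1, 2, 4, 6 and 10, against 5.70 to 6.81 in the fibre-poor tumors. NPE 1 and NPE 2 had the highest Actn3 and the highest adipocyte mean, while NPE 10 was fibre-rich at a fibre-poor level of adipocyte genes. With the mean of the adipocyte genes as a covariate, limma called 0 probe sets in either direction (370 higher and 415 lower at an unadjusted p under 0.05). Again all 172 kept their direction, with the limit given above. This covariate was chosen after seeing the data, and the part of adipocytes in the differences was not tested further. Markers of endothelium, macrophages, Schwann cells and keratinocytes had 0 calls each and medians of 0.04, 0.13, 0.03 and -0.08. Smooth muscle and pericyte genes had positive differences in 10 of 13 (median 0.19, 0 calls). T and B cell genes had positive differences in 10 of 12 (median 0.33, 0 calls), and Cd3d, Cd3g and Cd3e, chains of the T cell receptor complex, missed the threshold at 0.75 ± 0.17, 1.68 ± 0.40 and 1.30 ± 0.32 (log2 difference ± SE, adjusted p = 0.054, 0.066 and 0.076). The mean of the T and B cell list was 4.27 to 5.53 in fibre-rich and 3.92 to 5.11 in fibre-poor tumors, and its part in the differences was not tested.

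The adult fast fibre genes are given first, as a description, because the split was made on 1 of their class. All 30 other members of the list had positive differences (median 0.77), and 6 of them were among the called probe sets, where 0.441% of all probe sets were called higher. Pvalb, the calcium-binding parvalbumin of the fastest fibres, had 11.25, 10.85, 9.45, 10.33 and 10.41 in fibre-rich NPE tumors 1, 2, 4, 6 and 10, against 4.64 to 9.00 (median 6.97) in the fibre-poor tumors, a 14.7-fold difference. Every fibre-rich tumor stood above every fibre-poor one. Myh4, the myosin heavy chain of type IIb fibres, had 12.18, 11.90, 11.27, 11.71 and 11.61 against 8.35 to 11.32 (median 9.52). Here 4 of 5 fibre-rich tumors stood above all fibre-poor tumors, and NPE 4 lay inside their range. The fast myosin-binding protein Mybpc2 (2.12 on the log2 scale), the Z-disc protein Myoz1 (2.02), the skeletal myosin light chain kinase Mylk2 (2.05) and the muscle elongation factor Eef1a2 (1.82) had differences of like size.

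Among fast myosins the IIb myosin Myh4 differed by 2.22 ± 0.38 (difference ± SE, log2), the IIx myosin Myh1 by 1.18 ± 0.47 and the IIa myosin Myh2 by 0.65 ± 0.63, and the order of these differences was not tested. Within the tumors numbered 28 to 35, where NPE 4 stood alone against 4 fibre-poor tumors, the median of the list was -0.13. Skeletal actin, Acta1, had 12.02 ± 0.24 in fibre-rich and 11.70 ± 0.77 in fibre-poor tumors (SD, n = 5 and 9). The calcium pump Atp2a1 had 11.89 ± 0.28 and 10.76 ± 0.75, and the fast troponin I gene Tnni2 10.65 ± 0.63 and 9.37 ± 0.59.

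Of 14 adult slow fibre genes, 0 passed the test, 6 had positive and 8 had negative differences, and the median was -0.02 (0.25 for the 5 highest by the other adult fast fibre genes). Myh7, the slow myosin heavy chain, had 10.22, 9.74, 9.4, 8.92 and 11.20 in fibre-rich NPE tumors 1, 2, 4, 6 and 10, against 6.25 to 10.88 (median 10.01) in the fibre-poor tumors. The groups overlapped almost fully. The slow troponin I gene Tnni1 had 10.30 to 11.45 against 6.88 to 11.49, a difference of -0.04 whose sign turned in 17 alternatives. The slow light chain Myl2 had the highest difference of the list, 1.07 ± 0.50 (SE), and did not pass (limma adjusted p = 0.37).

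Among 16 genes of excitation-contraction coupling, which link the action potential to calcium release, 14 had positive differences (median 0.47). Of all probe sets 0.441% were called higher, and of these 16 genes 1 was. This was Clcn1, the chloride channel that stabilizes the resting muscle membrane, 3.86-fold higher (adjusted p = 0.033). Its level was 7.83 in NPE 1 and 5.13 to 5.66 in the other fibre-rich tumors, against 2.96 to 4.66 in the fibre-poor tumors. The lowest fibre-poor value lay near the background probes of these arrays (medians of 2.64 to 3.18). The call was lost without 1 of NPE 2, 5, 7, 8, 12 or 14, at most to an adjusted p of 0.11. The calcium release channel Ryr1 had 9.44 ± 0.51 in fibre-rich and 8.53 ± 1.48 in fibre-poor tumors (SD) and did not pass (adjusted p = 0.59).

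Genes of muscle energy supply followed the adult fast fibre genes. All 22 had positive differences (median 0.97, against -0.0044 for all probe sets) and 7 were called, where 0.441% of all probe sets were. The list holds many muscle isoforms, which share the tissue of the gene that made the split, beside genes not confined to muscle, such as Gpd1 and Ppargc1a. Fbp2, the muscle fructose-bisphosphatase, had 5.61, 5.42, 5.14, 5.32 and 5.25 in fibre-rich NPE tumors 1, 2, 4, 6 and 10, against 3.92 to 4.68 (median 4.30) in the fibre-poor tumors. All 5 fibre-rich tumors stood above all 9 fibre-poor tumors, within a narrow band, and the difference of 1.07 ± 0.13 (SE) had the lowest adjusted p of the list (0.0026). Ckm, the muscle creatine kinase that regenerates ATP, had 11.15, 10.31, 9.29, 9.75 and 10.13 against 7.70 to 8.89 (median 8.06), a 3.76-fold difference (adjusted p = 0.0043). Phkg1, the catalytic subunit of muscle phosphorylase kinase, which starts glycogen breakdown, had 9.35, 8.28, 7.02, 7.52 and 7.33 against 4.79 to 6.34 (median 5.35). Phkg1 was thereby 5.63-fold higher (adjusted p = 0.0059). The groups did not overlap for Ckm or Phkg1, and the calls of Fbp2, Ckm and Phkg1 held in all 14 fits that left out 1 tumor. For the 5 highest by the other adult fast fibre genes, 3 of the 7 calls were kept, those of Ckm, Phkg1 and Ampd1, and the median was 1.05. Fbp2 lost its call there (difference 0.82, limma adjusted p = 0.090).

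The other calls of the energy list were less stable. Ppargc1a, the coactivator PGC-1alpha that drives mitochondrial biogenesis, was 4.44-fold higher (adjusted p = 0.022) and lost its call without NPE 1 or NPE 2 (highest adjusted p = 0.085). Ampd1, the muscle AMP deaminase, was 4.65-fold higher (adjusted p = 0.033) and kept its call in 6 of 14 fits (highest adjusted p = 0.12, without NPE 2). The glycerol-phosphate shuttle enzyme Gpd1 (3.16-fold, adjusted p = 0.029) and the muscle subunit of cytochrome oxidase Cox7a1 (3.25-fold, adjusted p = 0.029) kept their calls in 9 of 14. Their highest adjusted p was 0.11 and 0.096, both without NPE 2. With the mean of the adipocyte genes as a covariate, Ppargc1a, Ampd1, Gpd1 and Cox7a1 differed by 1.03, 2.10, 0.65 and 1.17 on the log2 scale. Without it they differed by 2.15, 2.22, 1.66 and 1.70, and the part of adipocytes in these differences was not tested. Mitochondrial creatine kinase Ckmt2 (4.07-fold, adjusted p = 0.0503) and glycogen phosphorylase Pygm (2.27-fold, adjusted p = 0.064) missed the threshold narrowly. Genes of muscle glycolysis proper differed less and did not pass: Eno3 by 0.78 ± 0.33, Pgam2 by 0.82 ± 0.48 and Pfkm by 0.60 ± 0.45 (log2 difference ± SE).

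**Figure D2:**
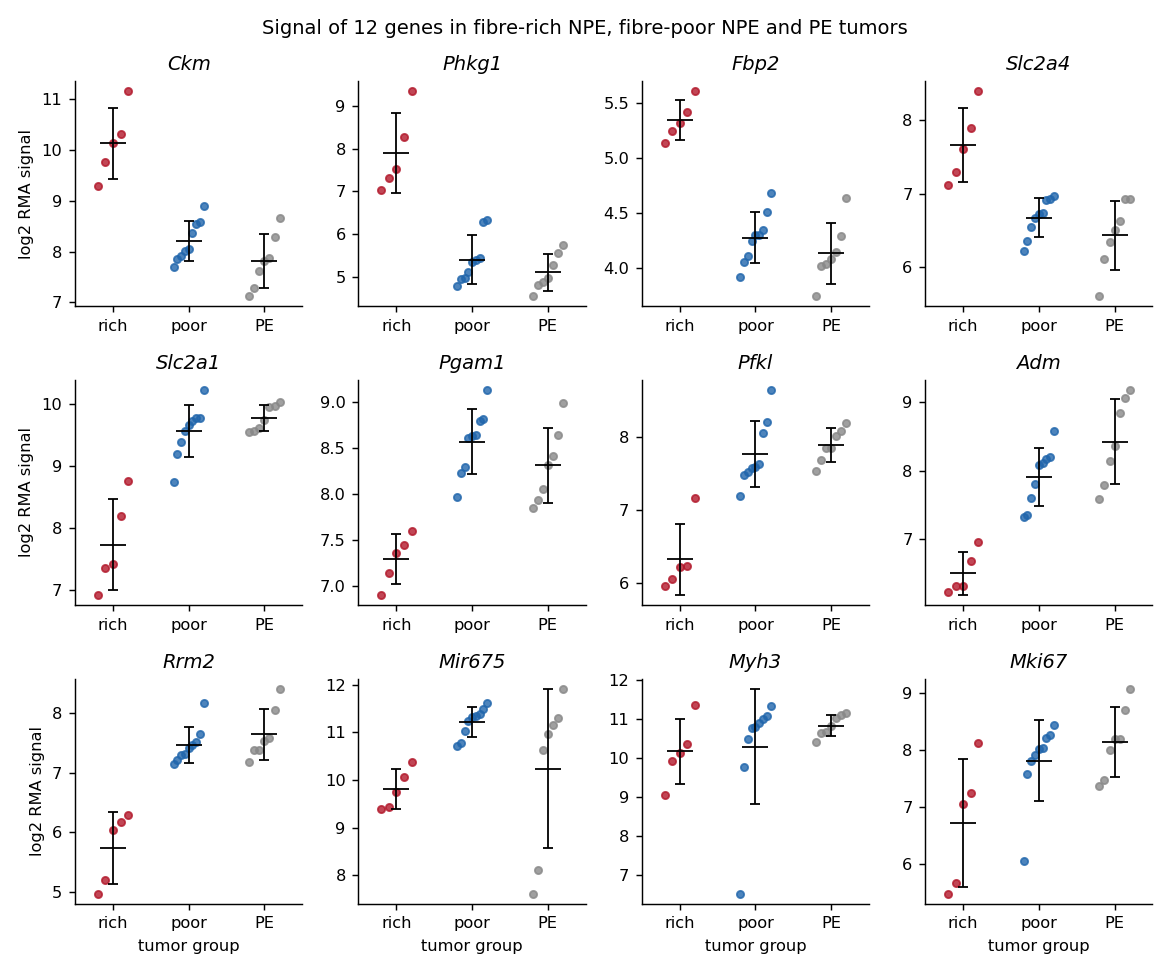
Log2 signal (y axis) of 12 genes in fibre-rich NPE, fibre-poor NPE and PE tumors (x axis), 1 point per tumor, with the mean and SD. Ckm, Phkg1, Fbp2 and Slc2a4 are higher in every fibre-rich tumor than in every other tumor, Slc2a1, Pgam1, Pfkl, Adm, Rrm2 and Mir675 stand below the fibre-poor tumors with little or no overlap, and Myh3 and Mki67 overlap.

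Fatty acid oxidation genes and genes of the respiratory chain and citrate cycle pointed the same way with smaller differences. All 17 fatty acid oxidation genes had positive differences (median 0.48), and 2 were called, where 0.441% of all probe sets were called higher. Acadm, the medium-chain acyl-CoA dehydrogenase, was 1.77-fold higher (adjusted p = 0.035) and Hadhb, of the mitochondrial trifunctional protein, 1.69-fold (adjusted p = 0.042). They kept their calls in 4 and 3 of 14 fits that left out 1 tumor (highest adjusted p = 0.13 and 0.14, both without NPE 2). Of 24 respiratory chain and citrate cycle genes, 23 had positive differences (median 0.37), and 1 was called. Idh3a, a subunit of NAD-dependent isocitrate dehydrogenase, had 9.68, 8.79, 8.75, 8.66 and 8.64 in fibre-rich NPE tumors 1, 2, 4, 6 and 10, against 7.91 to 8.30 in the fibre-poor tumors (adjusted p = 0.031). It lost its call without NPE 2, 7, 8, 12, 13 or 14 (highest adjusted p = 0.095). Adipocytes also express these 2 lists, and their markers moved with the split as given above.

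Glycolytic and hypoxia genes opposed Actn3, and less clearly the other adult fast fibre genes. All 22 measured members of the list of ubiquitous glycolytic isoenzymes and HIF-1 targets had negative differences (median -0.85), and 10 of them fell, where 0.333% of all probe sets did. Slc2a1, the glucose transporter GLUT1, had 7.42, 6.93, 8.21, 7.36 and 8.77 in fibre-rich NPE tumors 1, 2, 4, 6 and 10, against 8.76 to 10.23 (median 9.67) in the fibre-poor tumors. Only NPE 10 reached the range of the fibre-poor tumors, and the difference was -1.83 ± 0.27 (SE, adjusted p = 0.0076). Pgam1, the phosphoglycerate mutase of non-muscle tissue, had 6.91, 7.36, 7.60, 7.15 and 7.45 against 7.97 to 9.13 (median 8.63) with no overlap (adjusted p = 0.0043). Adm, the vasodilator peptide adrenomedullin, had 6.23, 6.33, 6.96, 6.31 and 6.69 against 7.33 to 8.58 (median 8.08), again with no overlap (adjusted p = 0.0062). These 3 calls held in all 14 fits that left out 1 tumor. When the 5 highest tumors by the other adult fast fibre genes were set against the rest, where 0.676% of all probe sets were lower, the median was -0.49 and 4 of the 10 calls were kept, those of Slc2a1, Pgam1, Adm and Ddit4. The calls of Pfkl, Pfkp, Vegfa, Egln3, Ankrd37 and P4ha1 were lost there (adjusted p = 0.097 to 0.63), and Ldha turned to 0.10.

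The liver-type phosphofructokinase Pfkl was 2.72-fold lower (adjusted p = 0.012), and its call was lost without NPE 2 (adjusted p = 0.063). The collagen prolyl hydroxylase P4ha1 (2.11-fold) and the oxygen sensor Egln3 (2.41-fold) fell and lost their calls without NPE 1 or NPE 2 (highest adjusted p = 0.081 and 0.095), and Ankrd37 (2.46-fold) lost it also without NPE 4 (highest 0.11). The calls of the platelet phosphofructokinase Pfkp (1.88-fold), the angiogenic factor Vegfa (1.73-fold) and the mTORC1 inhibitor Ddit4 (2.79-fold) were kept in 6, 5 and 2 of the 14 fits (highest adjusted p = 0.13 without NPE 2, 0.10 without NPE 1 and 0.16 without NPE 2). The abundant glycolytic enzyme Ldha differed by -0.15 ± 0.14 (adjusted p = 0.72), and phosphoglycerate kinase Pgk1 by -0.76 ± 0.17 (adjusted p = 0.055). Gapdh had 11.45 to 11.86 against 11.51 to 11.93, a difference of -0.02 whose sign turned in 8 alternatives. In title numbers 1 to 10 alone, where 3 fibre-rich tumors met 5 fibre-poor ones, 16 probe sets were lower and 3 higher.

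Muscle and ubiquitous forms of the same proteins had differences of opposite sign. The insulin-responsive glucose transporter Slc2a4 (GLUT4) had 8.40, 7.89, 7.12, 7.30 and 7.61 in fibre-rich NPE tumors 1, 2, 4, 6 and 10, against 6.22 to 6.98 (median 6.73) in the fibre-poor tumors. It was 1.98-fold higher (adjusted p = 0.026, lost without NPE 1, 2 or 8, at most to 0.11), while Slc2a1 was 3.55-fold and the high-affinity transporter Slc2a3 (GLUT3) 2.53-fold lower. The call of Slc2a3 (adjusted p = 0.011) was lost without NPE 2 (0.053). Slc2a4 and Slc2a3 also lost their calls for the 5 highest by the other adult fast fibre genes (limma adjusted p = 0.088 and 0.059). Slc2a4 and Slc2a3 were named after their values were seen. Muscle Pgam2 differed by 0.82 and non-muscle Pgam1 by -1.27, and Pfkm by 0.60 against -1.44 for Pfkl and -0.91 for Pfkp (log2 differences). Pgam1, Pfkl and Pfkp passed the test, and Pgam2 and Pfkm did not.

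Ero1a, the endoplasmic reticulum oxidase that hypoxia induces, had 6.45, 7.00, 7.53, 6.85 and 7.78 in fibre-rich NPE tumors 1, 2, 4, 6 and 10, against 8.35 to 9.98 (median 9.10) in the fibre-poor tumors. The groups stood apart, and the 3.94-fold difference (adjusted p = 0.0034) held in all 14 fits that left out 1 tumor. Among the 15 largest falls were further genes known to respond to hypoxia. The hormone stanniocalcin, Stc1, was 3.13-fold lower, Ndufa4l2 2.90-fold and the mitochondrial protein Mgarp 2.81-fold (adjusted p = 0.024, 0.040 and 0.014), and they kept their calls in 12, 3 and 13 of the 14 fits (highest adjusted p = 0.096 without NPE 2, 0.13 without NPE 1 and 0.070 without NPE 2). Ero1a kept its call for the 5 highest by the other adult fast fibre genes. Stc1, Ndufa4l2 and Mgarp lost theirs there (limma adjusted p = 0.065, 0.209 and 0.255).

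Promoter windows of gene lists and of called genes were searched for motifs, as a description. Windows of 250 bases before and 50 after each start were taken from RefSeq (GRCm38.p6), and they were found for 15691 of 19504 measured genes. The core of the HIF-1 motif, ACGTG on either strand, was searched after the results were seen. It stood in 16 of 26 windows (61.5%) of the glycolysis and HIF-1 list, in 31.8% of the windows of called-lower genes, in 22.0% of those of called-higher genes and in 21.4% of 19143 windows of all measured genes. The list was written to hold HIF-1 targets, so a high share in it could be foreseen. The called-lower genes include 10 of its members, so their share is not separate from it. ACGTG also stood in 36.7% of 30 windows of muscle energy genes, whose differences were positive. It stood in 29.2% of 24 windows of mitosis genes and in 23.8% of 21 windows of adult fast fibre genes. Windows of 3 genes that fell are shown 5′ to 3′ with ACGTG or its reverse complement in capitals, Slc2a1 (chr4:119108495-119108794, plus strand), Pgam1 (chr19:41911621-41911920, plus strand) and Ankrd37 (chr8:45999801-46000100, minus strand).
Slc2a1: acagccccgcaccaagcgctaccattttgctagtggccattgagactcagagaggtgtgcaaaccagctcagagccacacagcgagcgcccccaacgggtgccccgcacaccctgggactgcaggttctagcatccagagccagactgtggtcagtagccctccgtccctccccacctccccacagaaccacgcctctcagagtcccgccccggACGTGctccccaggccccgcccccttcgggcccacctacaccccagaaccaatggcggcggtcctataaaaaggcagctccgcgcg
Pgam1: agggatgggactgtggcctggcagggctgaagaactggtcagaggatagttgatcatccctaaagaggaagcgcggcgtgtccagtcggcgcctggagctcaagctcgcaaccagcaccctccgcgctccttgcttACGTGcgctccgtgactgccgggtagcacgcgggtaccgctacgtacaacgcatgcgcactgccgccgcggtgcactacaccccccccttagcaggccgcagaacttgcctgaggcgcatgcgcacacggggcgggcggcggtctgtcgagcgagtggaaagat
Ankrd37: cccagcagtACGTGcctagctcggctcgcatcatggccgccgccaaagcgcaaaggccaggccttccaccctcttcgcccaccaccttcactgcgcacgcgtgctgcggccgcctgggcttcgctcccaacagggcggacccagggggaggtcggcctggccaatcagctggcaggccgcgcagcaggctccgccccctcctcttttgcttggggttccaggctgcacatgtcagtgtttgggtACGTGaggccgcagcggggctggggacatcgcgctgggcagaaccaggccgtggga
Slc2a1 and Pgam1 hold 1 match each and Ankrd37 holds 2, while the window of Adm holds 0.

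The E-box CANNTG, the general motif of myogenic factors, stood in 77.0% of windows of called-higher genes, 65.2% of windows of called-lower genes and 68.9% of all windows. Its subform CAGCTG, which every count of CANNTG includes, stood in 16.0% of windows of called-higher genes and 16.7% of called-lower genes. These shares were near the 16.0% of all windows. In the gene lists, it stood in 43.3% of 30 windows of muscle energy genes and in 38.1% of 21 windows of adult fast fibre genes. The MEF2 motif stood in 13% of windows of called-higher genes, 3.03% of called-lower genes and 2.63% of all. The windows of Fbp2 (chr13:62858351-62858650, minus strand) and Myh4 (chr11:67237562-67237861, plus strand), a muscle energy and a fast myosin gene, are shown with CANNTG in capitals, and that of Fbp2 includes CACGTG, which also contains ACGTG.
Fbp2: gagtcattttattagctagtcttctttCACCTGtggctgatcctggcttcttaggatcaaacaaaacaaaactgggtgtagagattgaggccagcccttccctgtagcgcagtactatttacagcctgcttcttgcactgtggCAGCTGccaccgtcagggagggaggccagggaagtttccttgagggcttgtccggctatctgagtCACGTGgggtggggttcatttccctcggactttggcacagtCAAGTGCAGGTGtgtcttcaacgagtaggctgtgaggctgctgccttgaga
Myh4: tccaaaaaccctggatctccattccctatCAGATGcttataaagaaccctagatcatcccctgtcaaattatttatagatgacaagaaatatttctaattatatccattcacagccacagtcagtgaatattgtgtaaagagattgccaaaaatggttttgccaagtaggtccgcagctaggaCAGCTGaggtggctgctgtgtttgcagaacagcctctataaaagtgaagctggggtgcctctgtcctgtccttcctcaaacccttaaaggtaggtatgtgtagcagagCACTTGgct
They hold 5 and 3 matches. All these matches describe letters in a window and were not tested as binding sites.

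Of 22 embryonic and perinatal muscle genes, 0 passed the test, 6 had positive and 16 negative differences, and the median was -0.15 (0.23 for the 5 highest by the other adult fast fibre genes). Myh3, the embryonic myosin heavy chain, had 9.05, 10.14, 9.93, 10.36 and 11.36 in fibre-rich NPE tumors 1, 2, 4, 6 and 10, against 6.53 to 11.33 (median 10.80) in the fibre-poor tumors. The ranges covered each other, the difference was -0.13 with its sign turned in 7 alternatives, and the lowest fibre-poor value was that of NPE 3, which had the lowest mean of this list (7.00). Myh8, the perinatal myosin, was the highest of the list with a difference of 0.86 ± 0.39 (SE, adjusted p = 0.36), and the satellite cell cadherin Cdh15 the lowest with -0.80 ± 0.36 (adjusted p = 0.35). The fusion factors Mymk and Mymx differed by -0.07 ± 0.45 and -0.63 ± 0.36, and the intermediate filament desmin, Des, by -0.05 ± 0.24, with the sign of Mymk and Des turned in 11 and 8 alternatives. The fetal acetylcholine receptor subunit Chrng had 8.18 ± 0.71 in fibre-rich and 8.61 ± 1.34 in fibre-poor tumors (SD), and cardiac actin Actc1, the fetal actin of skeletal muscle, 9.61 ± 0.81 and 9.98 ± 0.33.

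Of 23 myogenic regulators, 1 was lower, where 0.333% of all probe sets were. Id1, which blocks myogenic bHLH factors, had 8.35, 8.40, 8.33, 8.85 and 9.11 in fibre-rich NPE tumors 1, 2, 4, 6 and 10, against 8.80 to 9.52 (median 9.34) in the fibre-poor tumors (adjusted p = 0.040). The call was kept in 4 of 14 fits that left out 1 tumor (highest adjusted p = 0.15, without NPE 2). Pax7, the satellite cell factor, differed by -0.71 ± 0.30, Myf5 by -1.33 ± 0.81, Myod1 by -0.50 ± 0.35, Myog by -0.39 ± 0.53 and the growth factor receptor Fgfr4 by -0.89 ± 0.48 (log2 difference ± SE). None of these passed (adjusted p = 0.31 to 0.84). Myf5 stood at 3.53 in NPE 3 against 7.89 in the next fibre-poor tumor. Notch and hedgehog genes, 20 in number, had a median of 0.02 with 0 calls, Ptch1 had 8.39 ± 0.77 in fibre-rich and 8.19 ± 0.61 in fibre-poor tumors, and Neu1 had 6.26 ± 0.14 and 6.42 ± 0.18 (SD).

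**Figure D3:**
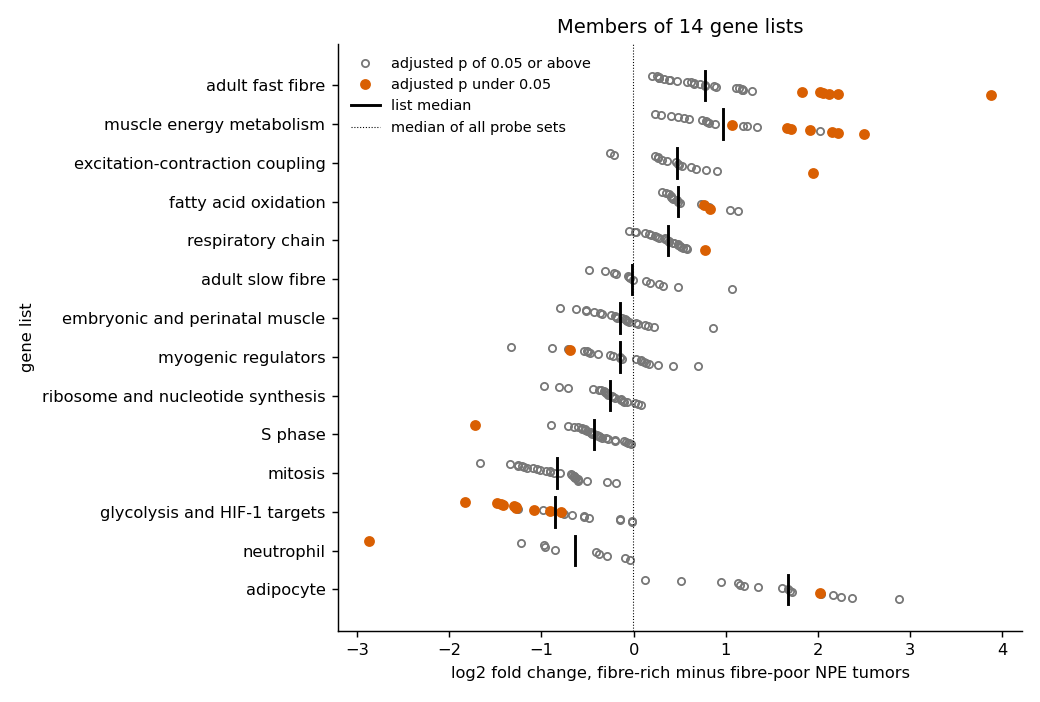
Log2 fold change of fibre-rich minus fibre-poor NPE tumors (x axis) for the measured members of 14 gene lists (y axis), 1 point per gene. Filled points have an adjusted p under 0.05, bars are list medians and the dotted line is the median of all probe sets at -0.0044. Medians run from 1.67 for adipocyte genes to -0.85 for glycolysis and HIF-1 targets.

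Proliferation genes had negative differences in every member, and how many passed depended on how the tumors were ordered. All 29 S phase genes (median -0.43) and all 28 mitosis genes (median -0.83) had negative differences, and 1 gene of both lists passed. On the slope per log2 unit of Actn3 over the 14 tumors, 12 S phase and 24 mitosis genes fell, where 2.64% of all probe sets did. For the 5 highest by the other adult fast fibre genes, which take NPE 9 in place of NPE 4, 7 S phase and 22 mitosis genes were lower (medians -0.54 and -1.17), where 0.676% of all probe sets were. The call of the Actn3 split was Rrm2, the small subunit of ribonucleotide reductase, which had 4.98, 5.21, 6.30, 6.04 and 6.18 in fibre-rich NPE tumors 1, 2, 4, 6 and 10, against 7.14 to 8.16 (median 7.42) in the fibre-poor tumors. The groups stood apart, Rrm2 was 3.30-fold lower (adjusted p = 0.0034), and the call held in all 14 fits that left out 1 tumor (for the 5 highest by the other adult fast fibre genes, adjusted p = 0.058). Its partner subunit Rrm1 differed by -0.61 ± 0.20 (SE, adjusted p = 0.19), the helicase subunit Mcm6 by -0.90 ± 0.29 (0.17) and the replication clamp Pcna by -0.40 ± 0.22 (0.48).

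In mitosis, the largest difference was that of the kinase Cdk1, at 3.11, 3.30, 5.96, 4.52 and 5.11 in fibre-rich NPE tumors 1, 2, 4, 6 and 10, against 3.52 to 7.20 (median 6.28) in the fibre-poor tumors (adjusted p = 0.17). NPE 1 and NPE 2 were lowest, NPE 1 near the median of its background probes (3.07), and NPE 4 lay well inside the fibre-poor range. Mki67, the antigen of cycling cells, had 5.49, 5.67, 8.13, 7.05 and 7.25 against 6.05 to 8.44 (adjusted p = 0.26). Plk1 came nearest to the threshold, with -1.21 ± 0.30 (SE, adjusted p = 0.072), and Top2a, Ccna2 and Cenpe differed by -0.91, -1.01 and -1.25 (adjusted p = 0.12, 0.22 and 0.14). On the slope Cdk1, Mki67 and Plk1 passed (adjusted p = 0.0058, 0.0085 and 0.00062), as they did for the 5 highest by the other adult fast fibre genes (0.0031, 0.0072 and 0.0031). The mean of the mitosis list was 4.43, 4.37, 5.63, 5.00 and 5.26 against 4.60 to 6.66 (median 5.88). The lowest fibre-poor tumor was NPE 9, which had the highest mean of the adult fast fibre list (9.55) and the next to highest Actn3 of its group, and the highest was NPE 3, which had the lowest (7.01).

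**Figure D4:**
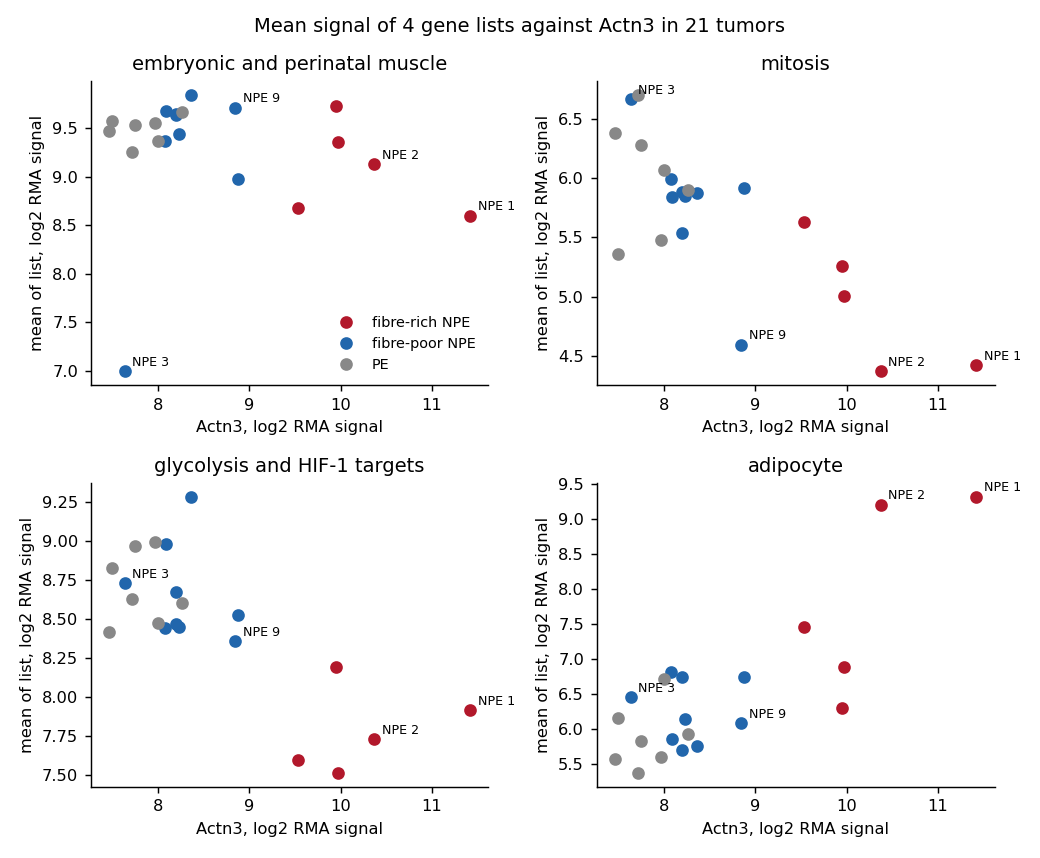
Mean log2 signal of 4 gene lists (y axis) against the log2 signal of Actn3 (x axis), 1 point per tumor. Mitosis is lowest in NPE 1, NPE 2 and NPE 9, glycolysis and HIF-1 targets are lower in all 5 fibre-rich tumors (7.51 to 8.19) than in the 9 fibre-poor tumors (8.36 to 9.29), embryonic muscle genes show no such order, and adipocyte genes are highest in NPE 1 and NPE 2.

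Mir675, the microRNA gene inside the imprinted growth-restraining transcript H19, fell (it lies outside the gene lists and was chosen after its values were seen). Its probe set had 9.45, 10.38, 10.06, 9.76 and 9.4 in fibre-rich NPE tumors 1, 2, 4, 6 and 10, against 10.71 to 11.61 (median 11.32) in the fibre-poor tumors. The groups did not overlap, and the 2.65-fold difference (adjusted p = 0.0034) held in all 14 fits that left out 1 tumor. Of 33 alternatives, these 14 included, 27 kept the call. It was lost for the 5 highest by the other adult fast fibre genes (limma adjusted p = 0.17). It was also lost for 7 highest against 7 lowest by Actn3 (0.164) and with the PE tumors added (0.163). In PE tumors the signal of this probe set ran from 7.62 to 11.91. Mature miRNA, hairpin and host RNA cannot be told apart by this probe set. RefSeq (GRCm38.p6) gives 2 mature arms, at chr7:142577112-142577133 and chr7:142577078-142577099 on the minus strand, shown with the seed, bases 2 to 8, in capitals.
mmu-miR-675-5p: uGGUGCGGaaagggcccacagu
mmu-miR-675-3p: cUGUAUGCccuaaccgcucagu
The 2 arms have different seeds. Of 11 measured imprinted growth genes, 0 passed. Igf2, the fetal growth factor next to H19, had 10.26 and 11.58 in NPE 1 and NPE 2, 12.19 to 12.57 in the other 3 fibre-rich tumors and 12.14 to 12.74 in the fibre-poor tumors (adjusted p = 0.34). Mest differed by -1.50 ± 0.57 (SE, adjusted p = 0.25). On the slope per log2 unit of Actn3, Igf2 and Mest passed (adjusted p = 0.016 and 0.015), and Mest was also lower for the 5 highest by the other adult fast fibre genes, by -2.42 (adjusted p = 0.0035).

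The falls of largest size included 3 matrix metalloproteinases. Mmp10, a secreted matrix metalloproteinase, had 3.26, 4.32, 5.71, 4.19 and 8.66 in fibre-rich NPE tumors 1, 2, 4, 6 and 10, against 8.39 to 9.97 (median 8.84) in the fibre-poor tumors. NPE 10 alone reached the fibre-poor range, and the difference was 13.3-fold (adjusted p = 0.015, lost without NPE 2 at 0.070). The value of NPE 1 lay near the median of its background probes (3.07), so the fold is a low-signal estimate. Mmp12 (5.49-fold) and Mmp9 (7.31-fold) of the same family, their inhibitor Timp1 (2.88-fold), the co-stimulatory receptor Tnfrsf9 (4.78-fold), the potassium channel subunit Kcne3 (4.57-fold), arginase Arg1 (3.58-fold), glucosylceramide synthase Ugcg (3.20-fold) and the collagen cross-linking enzyme Lox (3.04-fold) fell too (adjusted p = 0.0076 to 0.031). Of these, Tnfrsf9 kept its call in all 14 fits that left out 1 tumor, Kcne3, Ugcg and Lox lost it without NPE 2 alone (adjusted p = 0.063, 0.071 and 0.057), Mmp12 without NPE 1 or 2 (highest 0.070), and Timp1, Mmp9 and Arg1 kept it in 8, 7 and 5 fits (highest 0.11, 0.12 and 0.11, without NPE 2). All 10 neutrophil markers had negative differences (median -0.63), with Mmp9 the only call. The mean of that list was 4.16 to 5.11 in fibre-rich and 4.73 to 7.22 in fibre-poor tumors. Of 18 collagen and fibroblast genes, 14 had negative differences (median -0.19), and fibronectin Fn1 fell 2.19-fold (adjusted p = 0.040, kept in 3 of 14 fits, highest 0.15 without NPE 2). Mmp12 kept its call for the 5 highest by the other adult fast fibre genes. The calls of Mmp10, Mmp9, Timp1, Tnfrsf9, Kcne3, Arg1, Ugcg, Lox and Fn1 were lost there (limma adjusted p = 0.17 to 0.34).

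Of the 15 largest rises, 6 have not been described above with their values. Rpl3l, the striated-muscle paralog of ribosomal protein L3, had 8.22, 6.80, 6.05, 5.80 and 6.29 in fibre-rich NPE tumors 1, 2, 4, 6 and 10, against 3.94 to 5.11 (median 4.56) in the fibre-poor tumors. The groups did not overlap (adjusted p = 0.012), and the call was lost without NPE 2 (0.057). Smco1 was 4.39-fold higher and held its call in all 14 fits (adjusted p = 0.0072), but its fibre-poor values of 2.43 to 3.34 lay near the background probes of these arrays (medians of 2.64 to 3.18), so its fold is a low-signal estimate. The amylase gene Amy1 (4.87-fold), the peroxisomal fatty acid transporter Abcd2 (4.00-fold), Plin4 (4.07-fold) and Fsd2 (3.96-fold) were the others. Amy1 lost its call without NPE 1 or 2, Fsd2 and Abcd2 kept theirs in 6 and 5 of 14 fits, and Plin4 in 1, with highest adjusted p of 0.065, 0.12, 0.13 and 0.18, all without NPE 2. Amy1, Abcd2 and Plin4 were lowest among fibre-rich tumors in NPE 10 (4.60, 6.05 and 6.17), as the adipocyte genes were. Smco1 kept its call for the 5 highest by the other adult fast fibre genes. Rpl3l, Amy1, Abcd2, Plin4 and Fsd2 lost theirs there (limma adjusted p = 0.068 to 0.35).

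The PE tumors were not used by the rule. The 7 PE tumors spanned less than 1 log2 unit of Actn3, and on its slope 0 of 22205 probe sets passed with limma (729 at an unadjusted p under 0.05, and 0 with the ordinary linear model or an intensity trend). The slope in PE had the sign of the NPE difference for 71 of the 98 called-higher and 46 of the 74 called-lower probe sets. Over all probe sets, 53.8% had that sign. With the mean of the other adult fast fibre genes in place of Actn3, 74 and 28 did, so most called-lower probe sets ran the other way. The share over all probe sets is not given for that slope, so these counts cannot be set against it. On Actn3 in PE, 49.7% of all probe sets had positive and 50.3% negative slopes. Adult fast fibre genes had positive slopes in 27 of 30 (median 0.76 log2 units per log2 unit of Actn3). Energy genes had positive slopes in 20 of 22 (median 0.64), S phase genes negative slopes in 27 of 29 (median -0.42) and mitosis genes in 26 of 28 (median -0.22). The glycolysis and HIF-1 list had 9 negative and 13 positive slopes (median 0.04). The 3 negative slopes of the fast fibre list were those of Pvalb, Myh4 and Myoz3, at -1.22 ± 1.67, -0.12 ± 1.01 and -0.04 ± 0.26 (SE). The difference of slopes between NPE and PE, tested across all 21 tumors, passed for 0 probe sets (414 at an unadjusted p under 0.05).

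**Figure D5:**
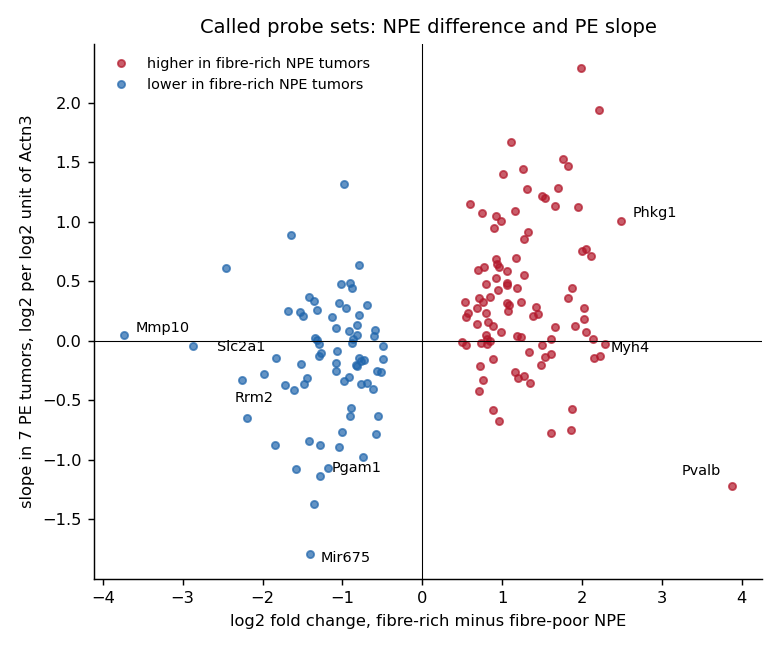
Log2 fold change of fibre-rich minus fibre-poor NPE tumors (x axis) against the slope on Actn3 in the 7 PE tumors (y axis, log2 units per log2 unit of Actn3), 1 point per called probe set. Of 98 called-higher probe sets, 71 lie above 0 in PE, and of 74 called-lower, 46 lie below 0.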

How the data were processed

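Total RNA of 21 flash-frozen tumors (14 NPE, 7 PE) was hybridized to Clariom S Mouse arrays. The authors deposited log2 signals made by RMA (background correction, quantile normalization and median polish), for which the labels name Affymetrix Expression Console 1.1. Of 28846 probe sets, 94 controls and 6546 with names that begin with MG- were left out, as was the 1 probe set of Actn3, which left 22205. The array's platform annotation, which can be old, names 19571 of them. A gene with several probe sets was read from the one with the highest mean in NPE tumors.

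Groups followed Actn3 at 9.4. Each probe set was fitted by limma (version 3.58.1 under R 4.3.3) with moderated errors, and 2-sided p-values were Benjamini-Hochberg adjusted over all probe sets and called under 0.05. The same fit gave the slopes on Actn3. It was checked on simulated data with known changes. The precision is limited by the number of arrays. The labels do not say that tumors came from separate mice, so p-values measure the spread between these tumors. The members, the 26 gene lists and the tests were chosen with earlier results of these data known. Genes could be named from the muscle, cycle and metabolic lists, from the 4 smallest p-values of other lists and from the 15 largest changes in each direction, plus Neu1 and Ptch1. Slc2a3, Slc2a4 and Mir675 were added after their values were seen. Promoter windows and miRNA sequences came from RefSeq (GRCm38.p6). Motifs and plots were made in Python 3.11.15 (pandas 2.3.3, matplotlib 3.10.9). Alternatives changed the moderation, weights, filter, normalization, split and samples.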

Additional observations from a re-analysis of the deposited data

Results flagged for a closer look

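For 102 named genes, each fibre group was searched for 1 tumor far from the others by Dixon's criterion, which chance meets in about 1 of 20 groups (204 groups were searched). Most of what it found was the fibre-poor tumor NPE 3, low in muscle genes of every stage. It had 8.97 for Atp2a1 (10.35 in the next tumor), 9.72 for Acta1 (11.60), 5.01 for Ryr1 (7.39), 8.46 for Pygm (9.70), 7.25 for Pfkm (9.33), 6.12 for Pgam2 (8.24) and 7.45 for Eno3 (9.19), and 6.88 for Tnni1 (10.52). Of the early muscle program it had 6.53 for Myh3 (9.77), 8.55 for Myh8 (10.68), 5.89 for Cdh15 (7.73), 5.28 for Chrng (8.29), 3.53 for Myf5 (7.89), 6.49 for Myod1 (8.25), 6.08 for Myog (9.27), 7.65 for Mymk (9.77) and 9.27 for Des (10.09). It was also low in Id1, which blocks myogenic bHLH factors, at 8.80 (9.21). The same tumor had the highest means of the neutrophil list (7.22) and of the mitosis list (6.66) among fibre-poor tumors.

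NPE 9 was low for a fibre-poor tumor in Mki67 (6.05, next 7.58), Cdk1 (3.52, next 5.67), Plk1 (5.41, next 6.6) and Mest (7.55, next 9.56). NPE 14 was high in Rrm2 (8.16, next 7.64) and NPE 5 in Smco1 (3.34, next 2.77). Among fibre-rich tumors, NPE 1 was high in Clcn1 (7.83, next 5.66) and Idh3a (9.68, next 8.79), NPE 10 was high in Pfkl (7.17, next 6.22), and NPE 4 was low in Ldha (9.87, next 10.49) and Gapdh (11.45, next 11.77).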

How the results depend on the processing

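All 172 called probe sets kept their direction in each alternative that tested them, while counts of calls depended on the fit (98 higher and 74 lower as reported). Those 172 were chosen for their differences in these same tumors, so their kept direction is no separate support. The ordinary linear model without moderation called 4 higher and 9 lower, 7 highest against 7 lowest by Actn3 5 and 3, title numbers 1 to 10 only 3 and 16, averaging the similar tumors (NPE 7 with 8, NPE 11 with 12) 12 and 18, leaving out NPE 1 and 2 together 7 and 5, and the adipocyte covariate, added after seeing the data, 0 and 0. Array weights gave 265 and 175, the slope per log2 unit of Actn3 555 and 586, the title-number range as a block 279 and 166, and the PE tumors added with genotype as a covariate 258 and 165. The 5 highest by the other adult fast fibre genes gave 52 and 150, and only 32 of the 172 calls were kept there. Of the 172, the ordinary linear model kept 12, and 7 highest against 7 lowest by Actn3 kept 6. With MG- probe sets tested too 47 were lower, as in title numbers 28 to 35 only. Leaving out 1 tumor gave 5 to 394 higher and 10 to 234 lower. The cause was not tested.

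In title numbers 28 to 35, NPE 4 alone stood against 4 fibre-poor tumors and was assumed to vary like them. List medians there were -0.13 for adult fast fibre, -0.49 for excitation-contraction coupling, 0.30 for muscle energy metabolism, -1.01 for embryonic muscle, -0.15 for S phase, -0.18 for mitosis, -1.29 for glycolysis and HIF-1 targets and 0.13 for the respiratory chain. Also changed in sign there were Acta1 (-0.33), Eno3 (-0.41), Myh2 (-0.087), Myh7 (-1.10), Pfkm (-0.72), Pgam2 (-0.63), Ryr1 (-0.22), Mest (0.55), Mki67 (0.17) and Pcna (0.28). The glycolysis and HIF-1 median was -0.29 as a slope and -0.49 for the 5 highest by fast fibre genes, and the fatty acid oxidation median 0.21 with the adipocyte covariate. With that covariate Actc1 (0.32), Chrng (0.40), Fgfr4 (0.22), Igf2 (0.19), Myf5 (0.18), Myh3 (0.65), Myod1 (0.097), Myog (0.28), Adipoq (-0.13), Tnni1 (0.50), Mymk (0.48), Gapdh (0.053) and Des (0.094) changed sign. No gene named here for a sign change had passed the test. For the 5 highest by fast fibre genes they were Ldha 0.10, Myh3 0.23, Myog 0.072, Tnni1 0.47, Mymk 0.28, Gapdh 0.13 and Des 0.30. In title numbers 1 to 10 they were Ldha 0.0070, Myh3 0.10, Tnni1 0.47, Mymk 0.068, Gapdh 0.078 and Des 0.20. As a slope they were Ptch1 -0.031, Tnni1 0.13, Mymk 0.029, Gapdh 0.011 and Des 0.067. For 7 against 7 they were Myh7 -0.30, Tnni1 0.12 and Mymk 0.15, and with array weights Myh7 -0.25. With the Y-linked covariate they were Tnni1 0.025 and Mymk 0.015. With similar tumors averaged they were Myh3 0.069, Tnni1 0.13 and Des 0.022, and without NPE 1 and 2 Myh3 0.26, Actc1 0.020, Tnni1 0.069 and Mymk 0.079. Without 1 tumor, Myh3 ran from -0.60 to 0.15, Tnni1 from -0.52 to 0.17, Mymk from -0.39 to 0.15, Ldha from -0.21 to 0.0022, Gapdh from -0.046 to 0.057, Des from -0.19 to 0.11 and Ptch1 from -0.033 to 0.42.

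Of the 172 calls, 117 sloped the same way in PE, and leaving out 1 PE tumor gave 80 to 131. On the mean of the other adult fast fibre genes, 798 probe sets passed in PE, and the genes of that mean were among those tested. Of the called probe sets, 74 of the 98 higher and 28 of the 74 lower ones ran the same way. Most called-lower ones thus ran the other way, and the share over all probe sets is not given for this slope. No paired analysis was possible because both groups lie within the NPE tumors and each tumor number occurs once. Of 52 named genes that passed, 11 kept their call in all fits that left out 1 tumor.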
